A study of Drosophila melanogaster with 11 samples.

Results

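Fatty acid oxidation genes were examined in the larval fat body of 5 isofemale strains of Drosophila melanogaster. The genes were 9 of the 13931 in the count table, picked by name with no threshold on a measured value. They were Acsl, whd, CPT2, Mcad, Arc42, Mtpalpha, yip2, Acox57D-p and Acox57D-d. All 9 were present in the table and all 9 passed the filter on low values, an average of 15 or more counts in a library, which 8415 genes met. The strains were MU10, MU12, MU14, MU17 and MU26, each founded from a single wild female of a population in Munich, Germany. Every library came from pooled, dissected fat bodies of female larvae of the third instar, in the late wandering stage. Larvae were reared at controlled density, with no treatment. The strain was the only factor that differed in the labels, which name no batch. There were 3 libraries for MU14 and 2 for each of the other strains, 11 in total. The study asked how much expression varies within a derived European population at this stage, shortly before the onset of metamorphosis.

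The larval fat body stores triglyceride and is a main site of its breakdown. Fatty acids are first activated to acyl-CoA, and long chains then enter mitochondria through the carnitine shuttle, where each turn of beta-oxidation removes an acetyl-CoA through a dehydrogenase, a hydratase, a second dehydrogenase and a thiolase. Peroxisomes shorten very long chains by a parallel route that opens with an acyl-CoA oxidase and releases hydrogen peroxide.

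The libraries held 34631482 to 49582725 counts each. Levels are given as CPM, a gene's share of the counts of its library after TMM scaling, which corrects for differences in RNA composition between libraries. Summed over 8 fat body marker genes, levels were 300298 to 456973 CPM, so the labelled tissue was present in every library. Summed marker levels of other tissues were far lower, at 421 to 749 CPM for 8 haemocyte genes, 97.1 to 189 CPM for 10 muscle genes, 11.1 to 36.9 CPM for 6 oenocyte genes, 3.68 to 146 CPM for 7 salivary gland genes, 4.27 to 27.9 CPM for 6 cuticle genes, and at most 20.4 CPM for the germ line, 2.41 CPM for the midgut and 2.23 CPM for the Malpighian tubule. Replicate libraries of a strain differed by more than sampling noise in every case, and the p-values measure the spread between such pools, not between independently founded lines.

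With all 11 libraries fitted, few of the fatty acid oxidation genes differed across the strains by more than the spread between libraries, which turned round on removal of 1 library. In edgeR's quasi-likelihood test across the 5 strains, only 1 of the 9 genes (11.1%) passed a Benjamini-Hochberg adjusted p of 0.05, against 48.3% of all tested genes. That gene was Acox57D-p, one of a pair of adjacent peroxisomal oxidases, with 12.5-fold more transcript in MU26 than in MU12. The log2 difference was 3.64, and 2.78 to 4.17 with 1 library left out. Of the other genes Arc42 came nearest, with an adjusted p of 0.0503, and Mcad was farthest, with an adjusted p of 0.34. At an unadjusted p under 0.05 the number was 3 of 9, against 4925 of the 8415 tested genes. The count of 1 was 4 with DESeq2 (44.4%, against 59.6% of all genes). Without replicate 1 of MU26 it was 5 (55.6%), above the 43.8% of all genes called in that case. The number also rose without either MU12 library or without replicate 2 of MU26. With any library left out other than replicate 1 of MU26, the share of the 9 genes called stayed below that of all genes.

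Most of the 9 genes were abundant. Per kilobase of gene length, the mean over the libraries was 593 CPM for yip2, 425 for Mcad, 187 for whd and 139 for Mtpalpha, which placed these 4 mitochondrial genes above 94.9% or more of the tested genes. The level and rank of Mcad are uncertain, because a gene on the opposite strand, CG7457, covers 92.6% of its exon bases. Reads of CG7457 may be included, or shared read pairs may have been dropped as ambiguous. The next levels were 62.3 CPM per kilobase for Arc42, 33.1 for CPT2, 14.9 for Acox57D-p and 11.2 for Acsl. Only Acox57D-d, at 2.73 CPM per kilobase, lay below the median of all tested genes, which was 5.36.

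**Figure D1:**
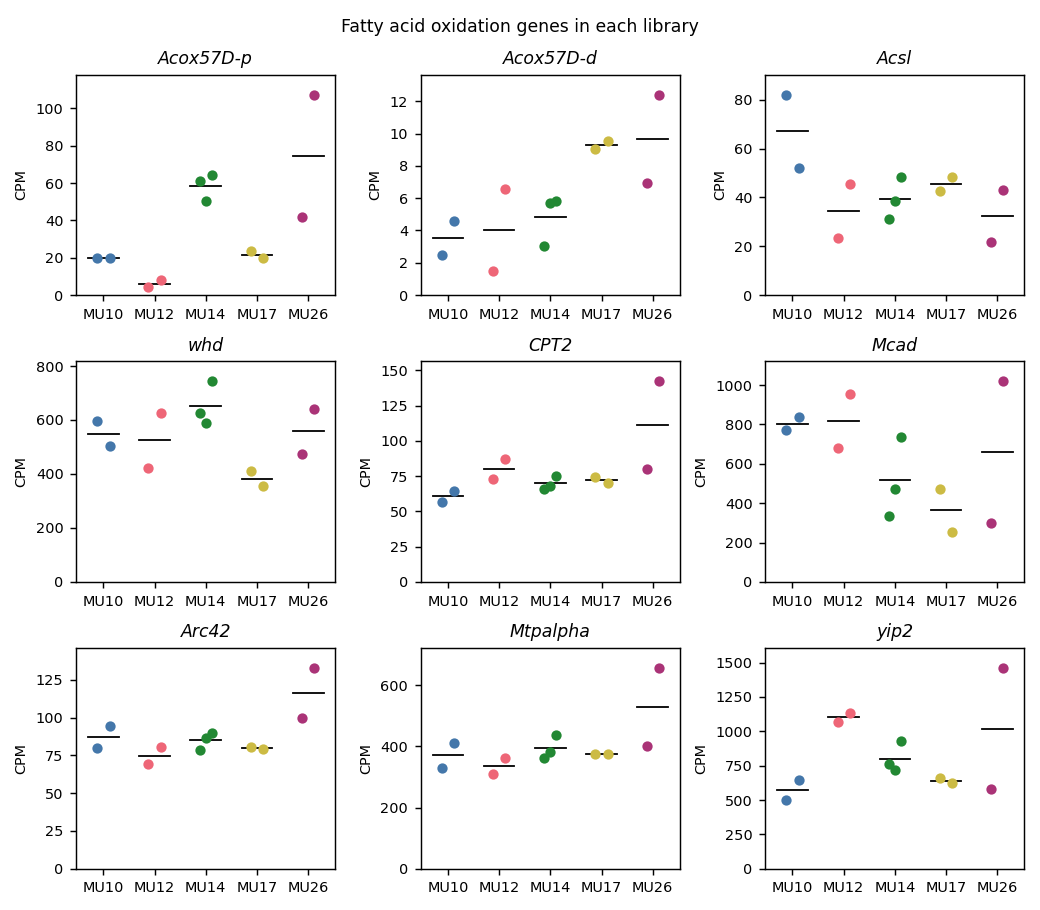
Level of each fatty acid oxidation gene in each library, in CPM on linear axes that start at 0, by strain, with points for libraries and a bar for the strain mean. Acox57D-p has the widest range as a ratio, with 107 CPM in an MU26 library and 4.13 CPM in an MU12 library, and for CPT2, Mcad, Mtpalpha and yip2 the 2 libraries of MU26 lie farther apart than the highest and lowest strain means.

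Activation was represented by Acsl, a long-chain acyl-CoA synthetase gene on chromosome 2R (8665813 to 8683022, plus strand, release 6 assembly). Its levels were 82.2 and 52.2 CPM in MU10, 42.5 and 48.4 in MU17, 31.1, 38.7 and 48.4 in MU14, 23.4 and 45.7 in MU12, and 21.8 and 43.1 in MU26. Both MU10 libraries lay above all 9 libraries of the other strains, whose ranges overlapped one another. The mean was 67.2 ± 21.2 CPM in MU10 and 32.5 ± 15.03 CPM in MU26 (SD, n = 2 each), a log2 difference of 1.05 ± 0.41 (SE) that did not pass the test (edgeR, adjusted p = 0.12).

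The carnitine shuttle was represented by whd and CPT2. The gene whd (withered, 2R, 10469473 to 10478567, minus strand) encodes carnitine palmitoyltransferase 1, which forms acylcarnitine at the outer mitochondrial membrane and sets the rate of entry. Its levels were 626, 587 and 743 CPM in MU14, 475 and 642 in MU26, 597 and 503 in MU10, 424 and 626 in MU12, and 411 and 354 in MU17. The 2 MU17 libraries were lower than the other 9, and the 3 MU14 libraries were all well above them. MU14 had 652 ± 80.8 CPM (SD, n = 3) and MU17 382 ± 40.4 CPM (SD, n = 2), a log2 difference of 0.77 ± 0.21 (edgeR, adjusted p = 0.038). This was the only pair of strains in which whd passed, and the call was lost on removal of either MU10 library, any of the MU14 libraries or either MU17 library, with adjusted p between 0.0545 and 0.19.

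CPT2 (3L, 2981022 to 2983551, plus strand) encodes the inner-membrane transferase that regenerates acyl-CoA in the matrix. It had 79.9 and 142 CPM in MU26, 73.0 and 87.1 in MU12, 74.1 and 70.0 in MU17, 66.1, 68.1 and 75.4 in MU14, and 56.6 and 64.4 in MU10. Replicate 2 of MU26 stood above all other libraries, and the 2 MU10 libraries were the lowest. MU26 exceeded MU10 by 0.87 ± 0.24 on the log2 scale (edgeR, adjusted p = 0.040) and the mean of the other 4 strains by 0.66 ± 0.18 (adjusted p = 0.029). Neither call held in every alternative run. With limma-voom and all libraries they were just lost (adjusted p = 0.0518 and 0.0545). Without replicate 2 of MU26 the differences were 0.39 (adjusted p = 0.16) and 0.17 (adjusted p = 0.45). The first was also lost on removal of either library of MU10 or MU17 or any of MU14 (adjusted p 0.0539 to 0.20) or of MU17 as a whole (adjusted p = 0.0538), and the second on removal of replicate 1 of MU10 or replicate 1 or 2 of MU14 (adjusted p 0.0514 to 0.0645).

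Inside mitochondria, the first step of beta-oxidation is carried out by acyl-CoA dehydrogenases of different chain-length preference, here Mcad and Arc42. Mcad (3L, 7719350 to 7721472, plus strand), the medium-chain enzyme gene, had 682 and 956 CPM in MU12, 770 and 836 in MU10, 299 and 1018 in MU26, 335, 474 and 737 in MU14, and 472 and 255 in MU17. The MU26 libraries took the second lowest and the highest value of the whole series, and MU12 exceeded MU17 by 1.17 ± 0.57 on the log2 scale, which did not pass (edgeR, adjusted p = 0.17). Mcad shares 1353 of its 1461 exon bases (92.6%) with CG7457 on the opposite strand. CG7457 had 129 to 498 CPM, and the ratio of Mcad to CG7457 was 1.90 to 2.23 in all 11 libraries. Strand handling in the counting is not given in the sources used here, so the reads of these 2 genes cannot be told apart. Read pairs that fitted both may also have been among those discarded, so the direction of any error is not known.

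Arc42 (3R, 19877737 to 19879309, plus strand) encodes a dehydrogenase related to the short-chain enzyme of mammals. It was the steadiest of the 9 genes, with a highest library only 1.91 times the lowest. Levels were 99.8 and 133 CPM in MU26, 80.1 and 94.7 in MU10, 80.3 and 79.5 in MU17, 78.6, 86.7 and 89.6 in MU14, and 69.4 and 80.5 in MU12. Both MU26 libraries lay above the other 9. MU26 exceeded MU12 by 0.63 ± 0.16 on the log2 scale (edgeR, adjusted p = 0.021), MU17 by 0.54 ± 0.16 (adjusted p = 0.044) and the mean of the other 4 strains by 0.51 ± 0.12 (adjusted p = 0.019).

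All 3 Arc42 calls were lost without replicate 2 of MU26, where the differences were 0.39, 0.31 and 0.27 (adjusted p = 0.14, 0.25 and 0.23). The difference from MU12 was also lost without replicate 1 of MU12 (0.52, adjusted p = 0.0955), and that from MU17 with limma-voom (adjusted p = 0.0528) and on removal of either library of MU10 or MU17 or any of MU14 (adjusted p 0.0574 to 0.15).

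The remaining mitochondrial steps were represented by Mtpalpha and yip2. Mtpalpha (2L, 9573563 to 9576769, minus strand) encodes the alpha subunit of the trifunctional protein, which carries hydratase and long-chain hydroxyacyl-CoA dehydrogenase activity. Its levels were 402 and 655 CPM in MU26, 363, 382 and 436 in MU14, 374 and 376 in MU17, 330 and 412 in MU10, and 309 and 361 in MU12. Apart from 655 CPM in replicate 2 of MU26, all libraries lay within 309 to 436 CPM. MU12 did not overlap with MU14, MU17 or MU26, nor MU17 with MU26, while the other 6 pairs of strains overlapped. The widest difference, MU26 over MU12, was 0.66 ± 0.22 on the log2 scale and did not pass (edgeR, adjusted p = 0.061).

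The thiolase gene yip2 (2L, 9915253 to 9917220, plus strand), which encodes the enzyme that releases acetyl-CoA, had 1071 and 1131 CPM in MU12, 579 and 1458 in MU26, 761, 715 and 927 in MU14, 503 and 647 in MU10, and 658 and 624 in MU17. The 2 MU12 libraries lay above all others except replicate 2 of MU26. MU12 exceeded MU10 by 0.94 ± 0.35 on the log2 scale, which did not pass (edgeR, adjusted p = 0.0999). Across the strains the adjusted p was 0.15, and it was 0.0043 without replicate 1 and 0.010 without replicate 2 of MU26.

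The peroxisomal oxidases Acox57D-p and Acox57D-d lie in tandem on 2R. Acox57D-p spans 21386309 to 21389276 and Acox57D-d 21389405 to 21392439, both on the plus strand and 129 bases apart. The names mark the copy proximal and the copy distal to the centromere. Both encode acyl-CoA oxidases, the enzymes of the first peroxisomal step, and as related copies they may share reads. Read pairs that fitted more than 1 gene were discarded by the authors, so levels of both are uncertain to that extent.

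Acox57D-p had 41.7 and 107 CPM in MU26, 61.1, 50.2 and 64.3 in MU14, 23.6 and 19.6 in MU17, 19.6 and 19.6 in MU10, and 4.13 and 7.85 in MU12. The MU12 libraries lay below all others, those of MU10 and MU17 lay side by side in the middle, and all libraries of MU14 and MU26 were higher than these. MU26 had 74.5 ± 46.4 CPM and MU12 5.99 ± 2.63 CPM (SD, n = 2 each), a log2 difference of 3.64 ± 0.46 (edgeR, adjusted p = 0.00091). This difference was 2.78 without replicate 2 of MU26 and 4.17 without replicate 2 of MU12. MU14, at 58.5 ± 7.37 CPM (SD, n = 3), exceeded MU12 by 3.29 ± 0.44 (adjusted p = 0.0012). Between strains the SD of the log2 means was 1.43, wider than for 94.8% of tested genes.

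In pairs of strains, Acox57D-p passed in 8 of 10, all except MU17 against MU10 and MU26 against MU14. MU12 was lower than each of the other 4 strains, the smallest of these differences being 1.71 ± 0.43 for MU10 over MU12 (edgeR, adjusted p = 0.025). MU26 exceeded MU10 by 1.93 ± 0.42 (adjusted p = 0.018) and MU17 by 1.79 ± 0.42 (adjusted p = 0.019). MU14 exceeded MU10 by 1.58 ± 0.40 (adjusted p = 0.025) and MU17 by 1.44 ± 0.39 (adjusted p = 0.039). MU26 and MU14 did not differ beyond their spread, at 0.35 ± 0.37 (adjusted p = 0.54).

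The differences of MU26 and of MU14 from MU12 passed in every alternative run. The other 6 pairs did not. Without replicate 2 of MU26 the difference from MU10 was 1.08 (adjusted p = 0.0713) and that from MU17 was 0.94 (adjusted p = 0.0994), and removal of either library of MU10 or of MU17 also ended the matching call (adjusted p 0.0701 to 0.11). The calls of MU10 and MU17 over MU12 were lost without replicate 1 of MU12 (1.30, adjusted p = 0.12, and 1.45, adjusted p = 0.0814), the first also without either MU10 library (adjusted p 0.0882 and 0.0921) and the second also without replicate 1 of MU17 (adjusted p = 0.0635). MU14 over MU10 was lost without either MU10 library or replicate 1 or 3 of MU14 (adjusted p 0.0615 to 0.14), and MU14 over MU17 without any single library of MU10, MU14 or MU17 (adjusted p 0.0616 to 0.18).

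Acox57D-d had 6.94 and 12.4 CPM in MU26, 9.05 and 9.54 in MU17, 3.03, 5.67 and 5.85 in MU14, 1.503 and 6.55 in MU12, and 2.46 and 4.59 in MU10. MU17 and MU26 libraries lay above those of the other 3 strains, which overlapped among themselves. MU26 exceeded MU10 by 1.46 ± 0.63 on the log2 scale, which did not pass (edgeR, adjusted p = 0.15). The strain means of the tandem copies did not rank in the same order, with MU17 above MU14 for Acox57D-d and below it for Acox57D-p. The first of these differences did not pass, at 0.94 ± 0.55 on the log2 scale (edgeR, adjusted p = 0.28). The second did not hold in every alternative run. A difference between the copies in their response to strain was not tested. Per kilobase, Acox57D-p was at 29.2 CPM and Acox57D-d at 4.30 in MU26, and at 2.35 and 1.79 CPM in MU12, where the 2 copies came closest.

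The neighbours of the tandem pair were also read. The gene eEFSec, a selenocysteine elongation factor gene 88 bases before Acox57D-p on the other strand, had strain means between 5.96 CPM in MU10 and 3.40 CPM in MU17 and differed across strains (edgeR, adjusted p = 0.022). Sdc, which encodes syndecan and overlaps the last 38 exon bases of Acox57D-d on the other strand, had means between 1789 CPM in MU26 and 957 CPM in MU17 (adjusted p = 0.0020). Sara, the next gene on the plus strand, had 63.4 to 69.0 CPM and did not pass (adjusted p = 0.83). MU12, the lowest strain for Acox57D-p, was the lowest for none of these 3.

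Among all other tested genes, the 2 whose centred log2 CPM came nearest to Acox57D-p over the 11 libraries were Prip and CG45095, with root mean square differences of 0.57 and 0.61. Prip, which encodes an aquaporin, had 89.4 and 98.2 CPM in MU26, 56.3, 45.9 and 55.3 in MU14, 24.8 and 21.0 in MU17, 19.2 and 11.4 in MU10, and 9.67 and 12.1 in MU12. The order of its strain means was that of Acox57D-p. CG45095, of which only the CG number is known here, was rare, at 1.83 CPM in MU26 and 1.58 in MU14 and at most 0.55 CPM in the other strains on average. These were picked for likeness, so no test was made.

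Each strain was also compared with the mean of the other 4. Of the 45 such tests on the 9 genes 5 passed (11.1%), against 21.0% of these tests over all genes. They were Acox57D-p in MU26 at 1.92 ± 0.29 (edgeR, adjusted p = 0.0028), in MU14 at 1.49 ± 0.26 (adjusted p = 0.0054) and in MU12 at -2.62 ± 0.40 (adjusted p = 0.0021), with CPT2 and Arc42 in MU26. Over all genes 12.1% passed as higher in MU14 and 11.4% as lower in MU12. The 3 Acox57D-p calls passed in every alternative run. None of the 9 genes passed in MU10, where 17.3% of all genes did, or in MU17, where 18.8% did. In MU26 the difference was positive for 8 of the 9 genes, with a median of 0.51 on the log2 scale against -0.01 over all tested genes, and 3 of the 9 passed as higher, against 10.9% of all genes. Acsl was the exception, at -0.48 ± 0.33. In replicate 1 of MU26, yip2 had 579 CPM and Mcad 299, below the mean of the other 4 strains, 779 and 625 CPM. There whd, at 475 CPM against 527, and Acsl, at 21.8 against 46.7, were also below it. The remaining genes were above it in that library. The 5 calls became 12 (26.7%) without replicate 1 of MU26 and 10 (22.2%) without replicate 2 of MU12, both above the shares over all genes in those cases, 17.9% and 18.9%. Without replicate 2 of MU26 neither CPT2 nor Arc42 passed in MU26.

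**Figure D2:**
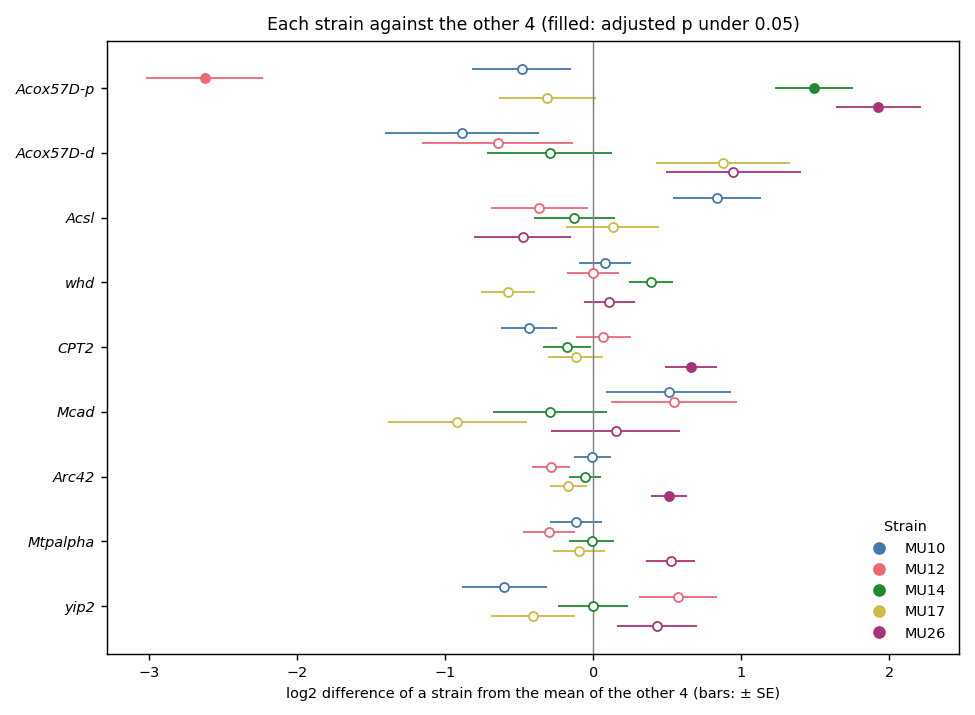
Difference of each strain from the mean of the other 4 for each fatty acid oxidation gene, on the log2 scale with SE bars, coloured by strain and filled where the adjusted p was under 0.05. The 5 filled points are Acox57D-p in MU12, MU14 and MU26 and CPT2 and Arc42 in MU26, and MU26 is to the right of 0 for 8 of the 9 genes.

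Over the 10 pairs of strains, 12 of 90 tests on the 9 genes passed (13.3%), against 20.3% of these tests over all genes. Of the 12 calls 8 belonged to Acox57D-p, 2 to Arc42 and 1 each to CPT2 and whd. Outside Acox57D-p, set aside after its result was seen, 4 of 80 tests passed (5.0%). That share has no matched figure over all genes. At least 1 pair was called for 4 of the 9 genes (44.4%), against 59.9% of all tested genes. Without replicate 1 of MU26 the 12 calls became 25 (27.8%), above the 17.1% of these tests over all genes in that case. They became 7 (7.8%) without replicate 1 or 3 of MU14, against 15.4% and 16.7% of these tests over all genes. They were also fewer without any 1 library of MU10 or MU17, where the share over all genes was lower than 20.3% too.

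The genes varied more between libraries of a strain than most genes did. The within-strain SD of log2 CPM had a median of 0.42 over the 9 genes and of 0.21 over all tested genes, and 8 of the 9 lay above that median, Arc42 being the exception at 0.16. The SD of the strain means had a median of 0.38 over the 9 genes and 0.31 over all tested genes, with 5 of the 9 above. The widest within-strain SDs were 0.76 for Acox57D-d, 0.68 for Mcad, 0.49 for Acox57D-p and 0.48 for Acsl.

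Within a strain, the 9 genes often lay on the same side of their means in a library, which was not tested. In MU26 all 9 were higher in replicate 2 than in replicate 1, by ratios of 1.33 for Arc42 to 3.41 for Mcad with a median of 1.79, while 50.3% of all tested genes were higher in replicate 2 and their median ratio was 1.002. In MU12 all 9 were higher in replicate 2 than in replicate 1, by 1.06 for yip2 to 4.36 for Acox57D-d with a median of 1.40, against 47.7% of all tested genes. In MU14 all 9 were above their strain mean in replicate 3. MU10 replicate 2 was above replicate 1 for 7 of the 9, all except whd and Acsl, and MU17 replicate 2 was above replicate 1 for 3 of the 9, which were Acox57D-d, Mtpalpha and Acsl. The labels tie no replicate number to a batch, so the number is used here only to name a library.

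**Figure D3:**
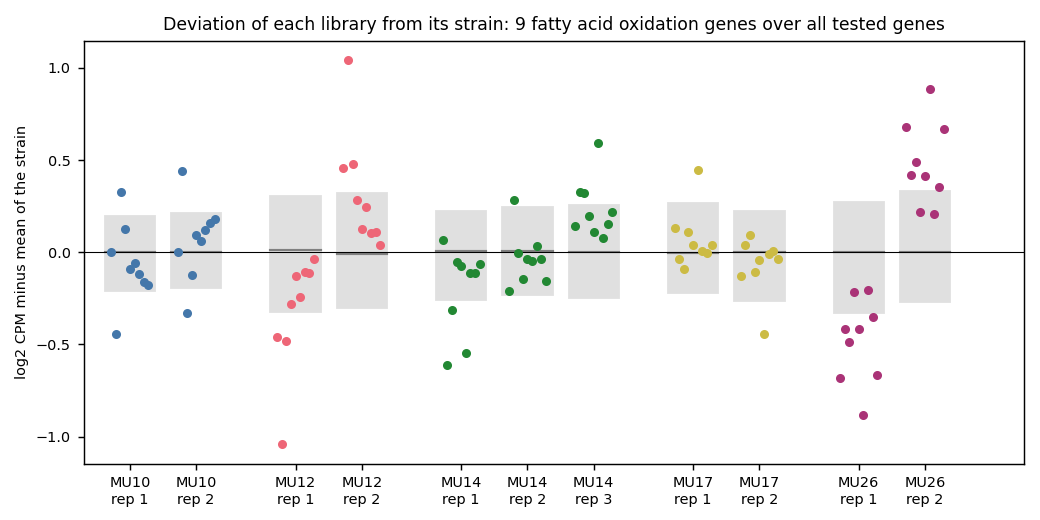
Deviation of each library from the mean of its strain for the 9 fatty acid oxidation genes (points), in log2 CPM, over the middle 80% of all tested genes (grey boxes, with their median as a line). Points of a strain with 2 libraries mirror each other. In MU26 and MU12 all 9 points of replicate 2 are above 0, as are those of MU14 replicate 3.

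Summed over the 9 genes, levels were 4211 CPM in replicate 2 and 2005 CPM in replicate 1 of MU26, the highest and the second lowest of all libraries, the lowest being 1835 CPM in replicate 2 of MU17. The sum was 3301 CPM in replicate 2 and 2658 CPM in replicate 1 of MU12. Of the lists of other pathway genes described further on, some but not all leaned the same way in replicate 2 of MU26, where 50.6% of all tested genes were above the strain mean. There 3 of 3 carnitine genes, 18 of 22 other mitochondrial enzymes, 8 of 10 other peroxisomal genes and 9 of 12 peroxins were above it, against 6 of 10 acyl-CoA synthetases and transport proteins, 5 of 9 regulators and 2 of 5 ketone body and acetyl-CoA genes. In replicate 2 of MU12, with 47.7% of all tested genes above the strain mean, the numbers in the same order of lists were 3 of 3, 15 of 22, 4 of 10, 7 of 12, 8 of 10, 5 of 9 and 5 of 5.

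Marker levels of other tissues differed between the same libraries. Summed fat body markers were 447522 CPM in replicate 2 and 456973 CPM in replicate 1 of MU26. Haemocyte markers were 628 and 495 CPM in these libraries, with 7 of 8 genes above the strain mean in replicate 2. Oenocyte markers were 23.9 and 11.1 CPM, with all 3 tested genes (Cyp4g1, FarO and FASN3) above the strain mean in replicate 2, and the other 3 (CG17560, CG18609 and Desat2) at 0.22 CPM or less in every strain mean. In MU12 oenocyte markers were 24.4 CPM in replicate 2 and 29.5 CPM in replicate 1, and haemocyte markers 509 and 460 CPM, with 8 of 8 above the strain mean in replicate 2. Cuticle markers were 23.5 and 4.27 CPM in these MU12 libraries, with all 3 tested genes above the strain mean in replicate 2 by a median of 1.69 on the log2 scale, and 9 of 10 muscle markers were above it by a median of 0.27, although their sums were 134 and 133 CPM. In MU26 cuticle markers were 9.16 CPM in replicate 2 and 12.7 CPM in replicate 1, muscle markers 97.1 and 110 CPM with 6 of 10 above, and salivary gland markers 11.6 and 18.2 CPM with 1 of 7 above. The salivary gland sums in MU12 were 14.3 and 16.6 CPM, with 2 of 7 above in replicate 2. Midgut, Malpighian tubule and germ line markers were at most 6.76 CPM in these 4 libraries. The 9 genes also lay mostly above the strain mean in replicate 3 of MU14 and replicate 2 of MU10. There 1 of 8 haemocyte genes was above it in each library. Oenocyte genes were above it for 1 of 3 and 3 of 3, in that order, and muscle genes for 6 of 10 and 8 of 10. Cuticle genes were above it for 2 of 3 and 0 of 3, and salivary gland genes for 0 of 7 and 1 of 7. The part of these cells in the levels of the 9 genes was not tested. In whole fat bodies, fewer cells of a type and less RNA per cell cannot be told apart.

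Other genes of the pathway were read from 7 lists with 83 genes, of which 82 were in the table and 71 were tested. Across the 5 strains 37 of the 71 passed (52.1%), against 48.3% of all tested genes. By list the numbers were 1 of 3 for the carnitine shuttle and acyltransferases, 6 of 10 for acyl-CoA synthetases and fatty acid transport proteins, 10 of 22 for other mitochondrial enzymes, 6 of 10 for other peroxisomal enzymes and carriers, 6 of 12 for peroxins, 4 of 9 for regulators and 4 of 5 for ketone body and acetyl-CoA genes. Direction was read from each strain against the other 4. In MU26, 3 of 12 peroxins and 3 of 9 regulators passed as higher and none as lower, while 3 of 22 other mitochondrial genes passed as higher and 3 as lower, against 10.9% and 10.6% of all genes. In MU17, 1 of the 22 passed as higher and 5 as lower, against 10.4% and 8.31% of all genes. In MU14, 5 of the 22 passed as higher and 1 as lower, against 12.1% and 9.35%. There 3 of 12 peroxins and 3 of 10 acyl-CoA synthetases and transport proteins passed as lower and none as higher. In MU12, 3 of 9 regulators passed as lower and none as higher, and 3 of those 10 genes as higher and none as lower. Over all genes 14.4% passed as higher and 11.4% as lower in MU12. In MU10, 2 genes of each of these 2 lists passed as higher and none as lower, against 9.78% and 7.52% of all genes.

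**Figure D4:**
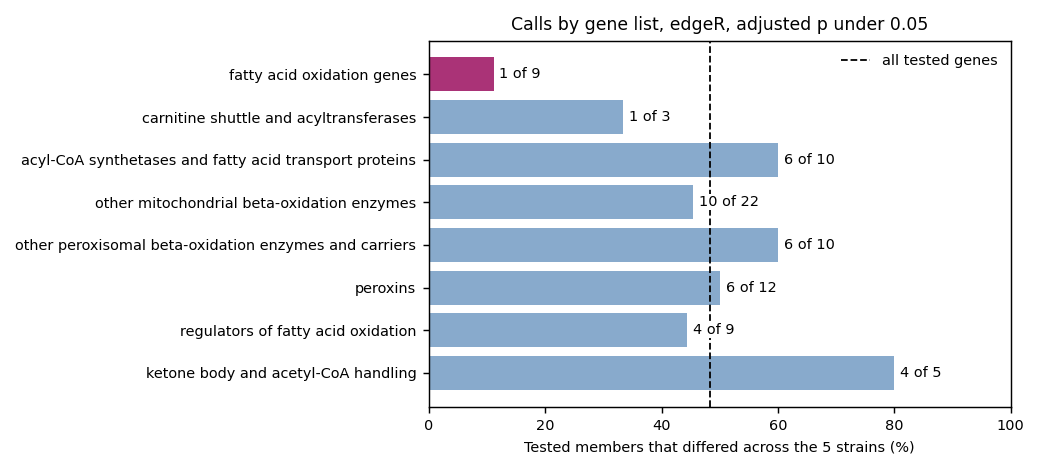
Percentage of the tested members of each gene list that differed across the 5 strains (edgeR, adjusted p under 0.05), with counts beside the bars and a dashed line at 48.3%, the percentage of all tested genes. The 9 fatty acid oxidation genes stand at 11.1%, and the 7 other lists lie between 33.3% and 80%.

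Among acyl-CoA and fatty acid transfer genes, the widest range belonged to hll, which encodes an acyl-CoA synthetase related to bubblegum. It had 1229 ± 71.8 CPM in MU10 and 75.9 ± 13.3 CPM in MU17 (SD, n = 2 each), a log2 difference of 4.02 ± 0.65 (edgeR, adjusted p = 0.0043). CROT, a carnitine octanoyltransferase gene, had 143 ± 40.2 CPM in MU12 (SD, n = 2) and 24.0 ± 6.96 CPM in MU14 (SD, n = 3), which differed by 2.57 ± 0.41 (adjusted p = 0.0027). The fatty acid binding protein gene fabp differed by 2.10 ± 0.28 between MU12 and MU26 (adjusted p = 0.0013), and Fatp3, a fatty acid transport protein gene, by 1.76 ± 0.37 between MU26 and MU14 (adjusted p = 0.013).

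The list of other mitochondrial enzymes included genes with wide differences. Whether each member of the list acts in mitochondrial beta-oxidation was not tested. CG4860, annotated as an acyl-CoA dehydrogenase, had 73.3, 67.4 and 55.8 CPM in MU14 and 10.3 and 13.0 CPM in MU10, a log2 difference of 2.49 ± 0.22 (edgeR, adjusted p = 0.00019). Dci, an enoyl-CoA isomerase gene, had 89.0 ± 31.9 CPM in MU12 and 15.3 ± 1.09 CPM in MU17 (SD, n = 2 each), a difference of 2.54 ± 0.33 (adjusted p = 0.0014). Had1, a beta hydroxy acid dehydrogenase gene, had 57.3 and 87.7 CPM in MU12 and 5.96 and 9.57 CPM in MU26 and differed by 3.22 ± 0.40 (adjusted p = 0.00085). Within single genes the libraries of these strains did not overlap.

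In peroxisomes, Acox3, another acyl-CoA oxidase gene, had 202 ± 21.3 CPM in MU26 (SD, n = 2) and 82.5 ± 13.5 CPM in MU14 (SD, n = 3), a log2 difference of 1.29 ± 0.15 (edgeR, adjusted p = 0.00090). MU14 was thus the lowest strain for Acox3 and the second highest for Acox57D-p. Cat, the catalase gene whose product breaks down the hydrogen peroxide made by acyl-CoA oxidases, had 3095 ± 138 CPM in MU12 and 990 ± 300.3 CPM in MU26 (SD, n = 2 each), and differed by 1.64 ± 0.18 (adjusted p = 0.00053). Its highest and lowest strains were the lowest and the highest for Acox57D-p, but MU14, at 2006 CPM, was second highest for both. The MU26 libraries of Cat, at 777 and 1202 CPM, lay on either side of those of MU17, at 1062 and 1038 CPM. A relation between the 2 genes was not tested. The rare oxidase gene CG17544, at 2.20 CPM in MU17 and 0.60 in MU26, differed by 1.88 ± 0.32 (adjusted p = 0.0050). Of the peroxins, which build the organelle and import its enzymes, Pex2 was highest in MU26 and lowest in MU12 (a log2 difference of 1.12 ± 0.20, adjusted p = 0.0044).

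Regulators and the use of acetyl-CoA completed the lists. Eip75B, a nuclear receptor gene induced by ecdysone, had 507 ± 56.0 CPM in MU26 and 197 ± 31.6 CPM in MU12 (SD, n = 2 each), a log2 difference of 1.36 ± 0.16 (edgeR, adjusted p = 0.00062). The same pair of strains was the widest for foxo, a transcription factor gene of the insulin pathway, at 0.98 ± 0.16 (adjusted p = 0.0031), and Sirt1, a deacetylase gene, differed by 0.74 ± 0.17 between MU17 and MU12 (adjusted p = 0.019). SCOT, which encodes the enzyme that returns acetoacetate to acetyl-CoA, differed by 0.61 ± 0.15 between MU26 and MU17 (adjusted p = 0.021). ATPCL, the gene of ATP citrate lyase, which makes acetyl-CoA for synthesis, had 98.9 ± 7.98 CPM in MU10 (SD, n = 2) and 35.8 ± 2.49 CPM in MU14 (SD, n = 3), a difference of 1.47 ± 0.27 (adjusted p = 0.0080). Of the 16 genes named from the lists, 12 passed in their widest pair in every alternative run. The exceptions were Fatp3, lost without replicate 1 of MU14 or of MU26, Sirt1, lost without either MU12 library or replicate 2 of MU17, ATPCL, lost without replicate 1 of MU10, and SCOT, lost without replicate 1 of MU17 or either MU26 library, with a highest adjusted p of 0.0900, 0.11, 0.0602 and 0.12 in that order.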

How the data were processed

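The authors selected poly-A RNA, mapped paired reads to the FlyBase transcriptome with NextGenMap, dropped pairs with an ambiguous gene or transcript, and deposited raw counts per gene. Strand handling is not given in the sources used here. The deposited gene length, whose handling of isoforms is not stated, was used for levels per kilobase. Of 13931 genes 13843 were matched to symbols by FlyBase identifier and 75 by CG number. Positions came from Ensembl's release 6 annotation.

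Libraries of 34631482 to 49582725 counts were grouped by labelled strain. The 8415 genes that averaged 15 counts or more were scaled by TMM and fitted in R 4.3.3 with edgeR 4.0.16, using a coefficient for every strain. Quasi-likelihood tests were made across strains, in 10 pairs and for each strain against the average of the remaining ones, with Benjamini-Hochberg adjustment over all tested genes within each test at a false discovery rate of 0.05. The scripts were tested on simulated data. The log2 CPM values used a prior count of 2.

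Alternatives were RLE factors, upper-quartile scaling, no filter, filterByExpr, DESeq2 (1.42.0), limma-voom (3.58.1), the replicate number as a block, each library left out, and MU17 left out. Members and lists were chosen with earlier results of these data known. The text names all 9 members, up to 3 called genes per list with the widest range of strain means, the neighbours of the Acox57D genes and the 2 genes most like each member that passed across strains. The genes overlapping members were added after their values were seen. Values of 3 genes that the rule for the lists picked are not reported here, while the counts over the lists include them.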

Additional observations from a re-analysis of the deposited data

How the results depend on the processing

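Acox57D-p passed across strains in every alternative run, with adjusted p between 2.2e-15 (DESeq2) and 0.0084 (replicate block), and no widest difference of the 9 genes changed sign. The number of the 9 genes called across strains was 1 in the analysis reported. It was 4 with DESeq2 (Acox57D-p, whd, CPT2 and Arc42), 44.4% against 59.6% of all genes. Upper-quartile scaling gave 3 (whd and Arc42 added), 33.3% against 47.3% of all genes. The replicate block gave 3 (Acox57D-d and Arc42 added), 33.3% against 37.2%, and filterByExpr 2 (Arc42 added), 22.2% against 46.2%. Leaving out 1 library gave 1 to 5, with 5 without replicate 1 of MU26 (Mtpalpha, CPT2, yip2 and Arc42 added), 3 without replicate 2 of MU12 (Acox57D-d and whd added), and 2 without replicate 1 of MU12 (whd added) or replicate 2 of MU26 (yip2 added). Calls over the pairs, 12 of 90, were 5 to 25 with 1 library left out, with 25 without replicate 1 of MU26 and 5 without either MU10 library, and 6 of 54 without strain MU17, where 7 of the same 54 tests passed with all strains fitted. Calls of a strain against the others, 5 of 45, were 4 to 12 with 1 library left out, with 12 without replicate 1 of MU26 and 10 without replicate 2 of MU12. With no filter on low values, 12 of 90 and 6 of 45 tests passed (13.3% each), above the 11.5% and 12.4% over all genes, whose number then included rarely counted genes. The cause of the other changes was not tested. With 1 library left out, the share of pair tests passed over all genes was always below the 20.3% with all libraries. Across strains, only the run without replicate 1 of MU26 called a larger share of the 9 genes than of all genes. Upper-quartile scaling moved the median of all genes by up to 0.14 (log2) in a pair. Correlations of deviations between same-number libraries of different strains were mixed, with 7 of 20 over 0.1 (-0.30 to 0.27). In strains with 2 libraries the deviations mirror each other, so these 20 are not separate checks. Between replicates 1 of MU10, MU12, MU14 and MU26 they were 0.06 to 0.27, and between those and MU17 -0.30 to -0.03. Whether the numbers pair the libraries was not settled. The replicate block left 8 pair calls in place of 12. Lost were Acox57D-p in MU14 over MU10 (edgeR, adjusted p = 0.0655) and over MU17 (0.0935). CPT2 in MU26 over MU10 (0.0552) and whd in MU14 over MU17 (0.12) were also lost. The block also ended the pair calls of Fatp3 and SCOT. With 2 libraries in most strains, 1 library can decide a call.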
